A study of Mus musculus with 2 samples.

Results

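The 10 genes described here are the ligands and receptors of the vascular endothelial growth factor (VEGF) and angiopoietin systems, 5 ligands (Vegfa, Vegfb, Angpt1, Angpt2 and Angptl4) and 5 receptors or co-receptors (Kdr, Flt1, Nrp1, Tek and Tie1), taken by symbol from the 32285 genes of the matrices. All 10 were found once in each matrix. They were read in whole spinal cords of FVB mice at postnatal day 4 by droplet single-cell RNA sequencing of 3′ tags, in which each counted molecule carries a unique molecular identifier (UMI). The library labelled SMA came from severe Taiwanese spinal muscular atrophy (SMA) mice with the genotype mSmn-/-, hSMN22tg/0. By that genotype they have no intact copy of the mouse gene Smn1, and they carry the human SMN2 transgene. The library labelled Con came from mice with the genotype mSmn+/-, hSMN22tg/0, which keep 1 intact copy of Smn1 and carry the same transgene. By the study, 3 littermates were pooled for each library, and the control mice came from the same litter as the SMA mice. There was 1 library per group, so no replicate error and no test were possible. Values are given for the library labelled SMA and then for the library labelled Con.

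VEGF-A is the main growth factor of blood vessels and acts through the receptor Kdr, while Flt1 binds both VEGF-A and VEGF-B and can hold ligand away from Kdr, and Nrp1 is a co-receptor. Angiopoietin 1, made by cells around the vessel, activates the receptor Tek and steadies the vessel wall, and angiopoietin 2, released by endothelial cells themselves, can oppose it and loosens the wall of sprouting vessels. Tie1 is a partner of Tek without a well-established ligand of its own, and Angptl4 is a related secreted protein that inhibits lipoprotein lipase and does not act through Tek. In the growing spinal cord, astrocytes are a known source of VEGF-A, and vessels are still sprouting after birth.

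In the mm10 assembly (GRCm38), the ligand genes lie on 4 chromosomes. Vegfa (ENSMUSG00000023951) spans chr17:46016993-46032369, Angptl4 (ENSMUSG00000002289) chr17:33773750-33781830 and Vegfb (ENSMUSG00000024962) chr19:6982473-6987651, all on the minus strand. Angpt1 (ENSMUSG00000022309) spans chr15:42424723-42676977 and Angpt2 (ENSMUSG00000031465) chr8:18690263-18741562, also on the minus strand. Of the receptors, Kdr (ENSMUSG00000062960) spans chr5:75932827-75978458 and Flt1 (ENSMUSG00000029648) chr5:147561604-147726011 on the minus strand of the same chromosome, and Tie1 (ENSMUSG00000033191) spans chr4:118471191-118490061 on the minus strand. Tek (ENSMUSG00000006386) spans chr4:94739289-94874976 and Nrp1 (ENSMUSG00000025810) chr8:128358604-128503363 on the plus strand. All 10 are protein-coding genes.

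The bases upstream of Kdr, Flt1 and Tek are shown because these receptors shared the narrow endothelial pattern described next. Tie1 shared it too, but its window overlaps the gene as annotated and is not printed. The printed bases are the part of the 250 bases before the RefSeq start (GRCm38.p6) that lies outside the gene as GENCODE annotates it, read 5′ to 3′ on the strand of the gene, from chr5:75978459-75978705, chr5:147726012-147726261 and chr4:94739039-94739288. Capitals mark AGGAAG, a core that ETS factors, which include many endothelial regulators, are known to bind, searched on both strands.
Kdr: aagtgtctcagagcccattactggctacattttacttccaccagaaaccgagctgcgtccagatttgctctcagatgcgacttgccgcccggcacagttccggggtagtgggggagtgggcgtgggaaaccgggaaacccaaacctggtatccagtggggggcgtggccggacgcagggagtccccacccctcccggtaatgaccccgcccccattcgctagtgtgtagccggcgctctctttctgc
Flt1: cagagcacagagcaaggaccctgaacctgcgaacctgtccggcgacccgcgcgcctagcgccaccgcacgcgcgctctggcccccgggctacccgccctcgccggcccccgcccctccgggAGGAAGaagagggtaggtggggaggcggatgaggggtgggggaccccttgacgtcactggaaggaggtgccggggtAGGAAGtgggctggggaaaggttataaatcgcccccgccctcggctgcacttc
Tek: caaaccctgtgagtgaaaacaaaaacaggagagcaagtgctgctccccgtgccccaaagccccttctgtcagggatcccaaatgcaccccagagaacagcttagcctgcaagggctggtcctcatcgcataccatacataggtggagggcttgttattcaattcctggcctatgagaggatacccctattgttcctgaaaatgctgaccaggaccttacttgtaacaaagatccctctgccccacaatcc
The windows of Kdr and Tek held no AGGAAG, that of Flt1 held 2 and that of Tie1 held 1. The motif stood in 29.5% of 32851 promoter windows of 250 bases, and a match is a description and no evidence of binding. The core ACGTG of hypoxia response elements, found in 16.6% of all windows and not overlapping AGGAAG, was in none of the 3.

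After filtering, 6787 and 8916 cells with 45630633 and 59377700 UMIs were kept, with a median of 6109 and 6232 UMIs per cell. The libraries shared 8163 barcodes, and the SMA cells with a shared barcode were left out by the rule that chose the data. Xist stood at 1.51 and 528 counts-per-million (CPM) and the summed Y-linked genes Ddx3y, Eif2s3y, Kdm5d and Uty at 153 and 63.1 CPM, so the sex of the pooled mice and the genotype cannot be told apart. Smn1 was read at 48.1 and 43.8 CPM, log2 SMA/Con 0.14 (0.05 to 0.22), and therefore was not lower in the library labelled SMA. Tags from the 3′ end may lie outside the altered part of the gene, so that Smn1 gave no check of the labels. Cells were sorted into classes by lists of markers, 10 for each compared class but the committed oligodendrocyte precursor (COP)-like, of whose markers 9 were in the matrices, and 11 classes had at least 50 cells in each library. All 10 endothelial markers were found in at least 10% of the endothelial-like cells of each library, with Cldn5, the main claudin of endothelial tight junctions, at 3189 and 4186 CPM there against 5.92 and 10.5 CPM in all other named cells.

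Endothelial-like cells, 330 and 449 in number, carried the receptors. Kdr, the main signalling receptor for VEGF-A, stood at 584 CPM (95% counting interval 554 to 614) and 487 CPM (464 to 510) there, and 92.6% and 93.1% of all its UMIs in named cells came from this class. Flt1 was read at 653 CPM (621 to 685) and 613 CPM (588 to 639), or 97.1% and 94.9% of its UMIs. The angiopoietin receptor Tek stood at 65.9 CPM (56.1 to 76.8) and 88.2 CPM (78.8 to 98.4), and its partner Tie1 at 102 CPM (89.7 to 115) and 129 CPM (117 to 141). All other compared classes lay under 30 CPM for each of these 4 receptors. The next was the ependymal-like class for Kdr, with 13.4 and 12.3 CPM, and the mural-like class of pericytes and smooth muscle for Flt1, with 14.3 and 26.9 CPM. These counting intervals, exact Poisson intervals on the summed UMIs, hold no variation between mice, and levels are compared between classes and libraries and not between genes. Erythroid-like cells, which should lack all 4 receptors, gave the background: Tek and Tie1 had 0 UMIs in 381 and 896 such cells, Kdr had 0 and 1, and Flt1 had 2 and 7.

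Nrp1, the co-receptor, was spread more widely. It was highest in endothelial-like cells, at 152 CPM (137 to 169) and 138 CPM (127 to 151), and 33.8% and 28.8% of its UMIs came from them. Fibroblast-like cells followed with 79.8 and 71.0 CPM and mural-like cells with 57.2 and 65.0 CPM, and the intervals of these neighbours overlapped. Microglia-like cells held 47.5 and 60.3 CPM and astrocyte-like cells 19.0 and 29.6 CPM. Macrophage-like cells, 38 and 65 in number and therefore under the minimum for comparison, held 93.4 CPM (64.7 to 130) and 134 CPM (107 to 165).

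Most UMIs of each ligand came from other classes in both libraries, with the exception of Angpt2 in the library labelled SMA, where 54.9% came from endothelial-like cells against 29.4% in the library labelled Con. Vegfa was read at 45.8 CPM (41.3 to 50.5) and 43.2 CPM (39.4 to 47.4) in astrocyte-like cells, which gave 58.6% and 47.6% of its UMIs. Fibroblast-like cells held 10.2 CPM (3.74 to 22.2) and 47.0 CPM (39.3 to 55.8), so that in the library labelled Con they stood beside the astrocyte-like cells with overlapping intervals and in the library labelled SMA they did not. Next came 22.9 and 24.5 CPM in oligodendrocyte-like cells and 21.1 and 22.9 CPM in COP-like cells, whose intervals overlapped. In endothelial-like cells Vegfa had 5 and 13 UMIs. Vegfb, the ligand that binds Flt1 and not Kdr, was broad, with 71.9 and 87.0 CPM in astrocyte-like, 53.3 and 66.9 CPM in oligodendrocyte precursor cell (OPC)-like and 43.8 and 53.3 CPM in ependymal-like cells. It reached 14.1 and 13.7 CPM in endothelial-like cells, and erythroid-like cells held 5.09 and 5.21 CPM.

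The angiopoietin ligands differed from each other in their source. Angpt1 had no level above 3 CPM in endothelial-like cells, with 6 and 7 UMIs, and stood in fibroblast-like cells at 30.5 and 18.3 CPM, in mural-like cells at 21.5 and 13.4 CPM and in astrocyte-like cells at 17.3 and 11.9 CPM. Neighbours in this order overlapped in their intervals in each library. Of the Angpt1 UMIs in named cells, 60.7% and 48.8% came from astrocyte-like cells. Angpt2 was above 3 CPM in 4 of the compared classes, with 44.7 and 17.9 CPM in mural-like, 40.8 and 13.7 CPM in endothelial-like, 28.9 and 5.74 CPM in fibroblast-like and 12.3 and 21.5 CPM in Schwann-like cells. Every other compared class held less than 3 CPM of Angpt2, and the erythroid-like cells held 0 UMIs.

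Among the compared classes, Angptl4 was highest in endothelial-like, astrocyte-like and fibroblast-like cells, of which the last led in the library labelled Con. It stood at 113 CPM (99.9 to 127) and 107 CPM (96.2 to 118) in the first and at 103 CPM (96.1 to 110) and 116 CPM (109 to 122) in the second. Fibroblast-like cells held 79.8 and 166 CPM, mural-like cells 41.1 and 51.0 CPM, Schwann-like cells 7.84 and 15.9 CPM and oligodendrocyte-like cells 8.19 and 28.1 CPM. The erythroid-like background was 1.70 and 1.57 CPM, and the remaining compared classes held less than 10 CPM.

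**Figure D1:**
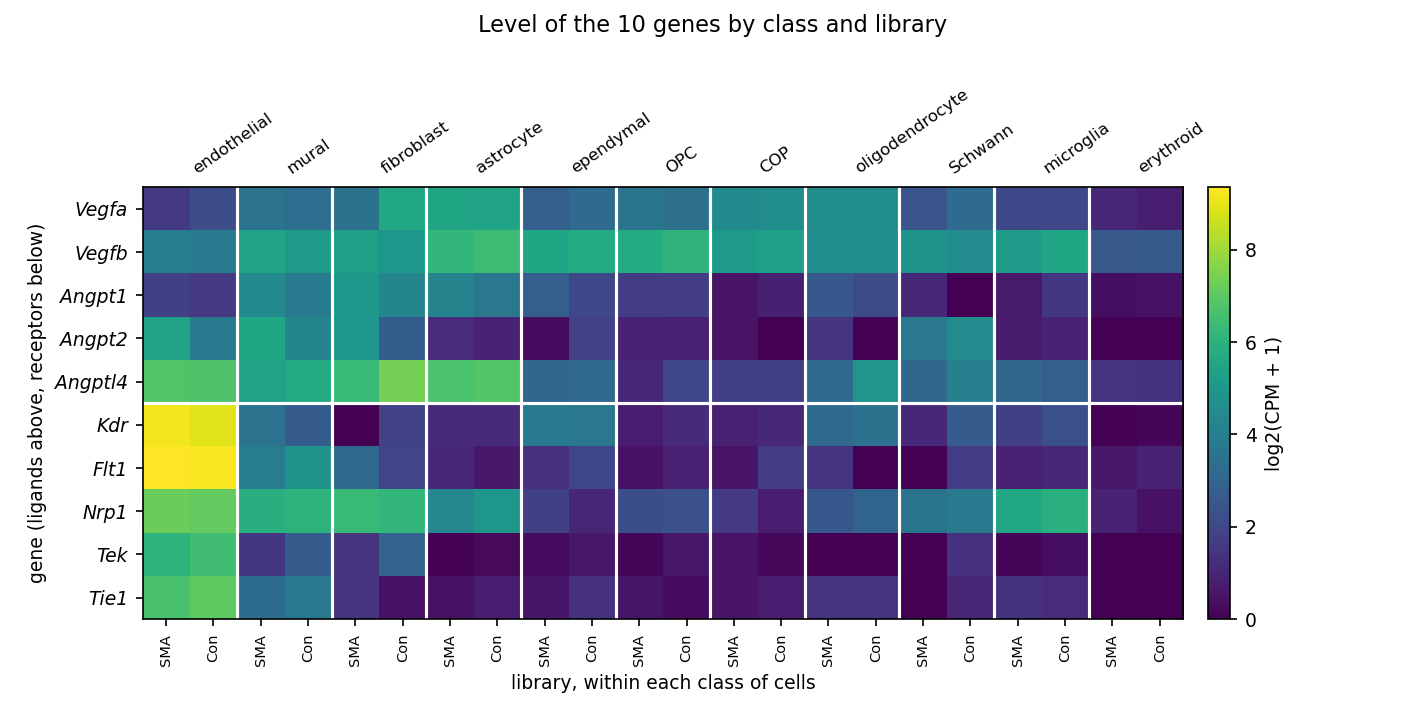
Level of each gene, as log2(CPM + 1) by colour, in the 11 classes of cells (columns in pairs, library labelled SMA on the left and Con on the right), with the 5 ligands above and the 5 receptors below. Kdr and Flt1 are brightest in endothelial-like cells and dark in most others, while Vegfa, Vegfb and Angptl4 are bright in astrocyte-like cells.

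The comparison of the 2 libraries asked whether vessel cells of the SMA cord differ in these signals. Ratios are given as log2 SMA/Con, the log2 of the CPM in the library labelled SMA over that in the library labelled Con, with exact 95% counting intervals. In endothelial-like cells the largest difference among the 10 genes was that of Angpt2, with 101 and 50 UMIs, or 40.8 CPM (33.2 to 49.6) and 13.7 CPM (10.2 to 18.1). The intervals did not overlap, and log2 SMA/Con was 1.57 (1.07 to 2.09), or 2.97-fold higher in the library labelled SMA. Among the 6191 genes with at least 100 UMIs in these cells, 21 (0.339%, Angpt2 included) had a ratio as high or higher. Kdr was the next gene with a ratio above 0 whose interval did not hold 0, with 1444 and 1772 UMIs, log2 SMA/Con 0.26 (0.16 to 0.36). Of those 6191 genes, 1189 had a ratio as high as that of Kdr or higher.

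The angiopoietin receptors were lower in the library labelled SMA. Tek had 163 and 321 UMIs, log2 SMA/Con -0.42 (-0.70 to -0.14), and Tie1 had 252 and 469 UMIs, log2 SMA/Con -0.34 (-0.57 to -0.12). Neither passed 1.5-fold, the size called here. Of the 6191 genes with at least 100 UMIs, 583 had a ratio as low as that of Tek or lower, and 871 as low as that of Tie1 or lower. With all SMA barcodes kept the Tek value was -0.18 (-0.41 to 0.05), an interval that holds 0. The Tek interval also held 0 without the sub-cluster held by the library labelled SMA, described further on. Flt1 at 0.09 (-0.0022 to 0.18), Nrp1 at 0.14 (-0.06 to 0.33), Angptl4 at 0.08 (-0.15 to 0.31) and Vegfb at 0.04 (-0.62 to 0.69) had intervals that held 0. The intervals of Flt1, Nrp1 and Angptl4 lay within 1.5-fold in either direction, and that of Vegfb did not. With the endothelial sub-clusters led by markers of other classes left out, as described further on, Vegfb was 0.94 (0.05 to 1.85) and passed 1.5-fold. Vegfa and Angpt1 stayed under the minimum of 20 UMIs.

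Of the 8 genes with enough UMIs, 1 was past 1.5-fold higher (2 without those sub-clusters), where 8.47% of the 10685 genes read in endothelial-like cells were, and 0 were past 1.5-fold lower, against 8.99% of all genes. The count of 1 of 8 is close to that background and says nothing about the genes as a set. The shares are those of the whole class, so the count of 2 has no background of its own. Their median log2 ratio was 0.09, beside 0.0039 over all genes.

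**Figure D2:**
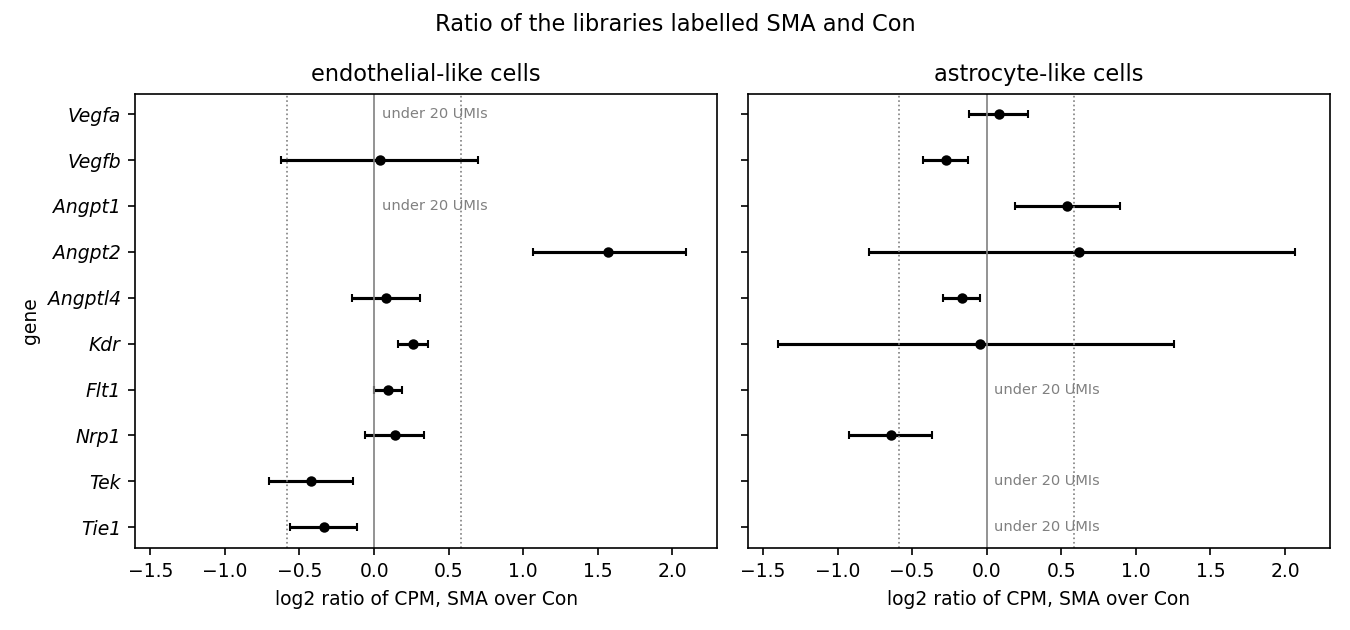
Log2 ratio of the CPM of the library labelled SMA over that labelled Con (horizontal axis) for each gene in endothelial-like cells (left) and astrocyte-like cells (right). Points are ratios, bars their exact 95% counting intervals, dotted lines 1.5-fold either way, and genes under 20 UMIs are marked as such. Angpt2 stands to the right in endothelial-like cells and Nrp1 to the left in astrocyte-like cells.

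The Angpt2 counts were then read cell by cell. At least 1 Angpt2 UMI was found in 52 of 330 (15.8%) and 29 of 449 (6.46%) endothelial-like cells, at median depths of 6885 and 7802 UMIs. Erythroid-like cells had none at a median of 9617 and 9615 UMIs. Those UMIs fell on fewer genes, with 1166 genes of at least 100 UMIs against 6191 in endothelial-like cells, so the depths are not alike. The highest cell held 10 and 5 UMIs, and without the 5 highest cells of each library the level was 27.1 and 7.97 CPM. When every cell was thinned to 1000 UMIs, the shares were 2.73% (1.25 to 5.11) and 2.0% (0.92 to 3.77), which overlapped, so the difference in shares was not detectable at that depth.

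Apln encodes the peptide apelin of sprouting tip cells. Of the cells with an Angpt2 UMI, 90.4% and 82.8% also had an Apln UMI, against 48.9% and 26.0% of the other endothelial-like cells. Apln was the more widely read of the pair, with a UMI in 183 and 133 cells, of which 47 and 24 also had an Angpt2 UMI, so that most cells with Apln had none of Angpt2. These shares are not thinned for depth. Apln was the only gene of the tip cell list, described further on, that was read in the same cells as Angpt2. Of the 10 genes of that list read in the class, Apln alone was past 1.5-fold higher and 3 were lower. The shares therefore do not name these cells as tip cells.

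Endothelial-like cells were clustered again without the 10 genes and the related lists into 12 sub-clusters. Sub-cluster 4, led by Madcam1, Trp53i11, Apod and Mcam, held the most Angpt2 among sub-clusters of more than 50 cells, with 29 UMIs in 18 cells, or 173 CPM (116 to 249), and 39 UMIs in 59 cells, or 63.9 CPM (45.5 to 87.4). Sub-cluster 1, led by Fgfbp1 and Cdkn2b, held 38.1 CPM (22.2 to 60.9) and 8.03 CPM (2.19 to 20.6). In these 2 sub-clusters the Angpt2 level was higher in the library labelled SMA and the intervals did not overlap.

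The sub-clusters took different shares of the class in the libraries. Sub-cluster 2, led by Lrrc55 and Ccl21a, had 13 and 111 cells, or 3.94% and 24.7% of the endothelial-like cells, and held Angpt2 at 16.7 CPM (2.02 to 60.3) and 4.72 CPM (1.53 to 11), with overlapping intervals. Its low share in the library labelled SMA, like the high share of sub-cluster 3 there, changes the make-up of the class behind the ratio.

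Sub-clusters 5 and 6, led by genes that included Cxcl12, Sema3g and Gja4 and Fbln5, Gkn3 and Bmx, several of them known from arteries, held 0 Angpt2 UMIs. Over both sub-clusters that is 0 in 47 cells labelled SMA and 67 labelled Con, with an upper limit per sub-cluster between 12.6 and 33.3 CPM. Among groups of at least 10 cells in sub-clusters 1 to 6, they held the most Tek in each library, with 175 and 173 CPM in the first and 126 and 205 CPM in the second, where sub-cluster 4 held 41.8 and 32.8 CPM. Sub-cluster 3 had 108 cells labelled SMA against 1 labelled Con. It was led by genes that included Phlda3, Perp, Zmat3 and Cdkn1a, known targets of p53, and held 34 Angpt2 UMIs, or 38.2 CPM (26.4 to 53.4). Without this sub-cluster the log2 ratio of Angpt2 in endothelial-like cells was 1.62 (1.07 to 2.18), that of Tek was -0.20 (-0.52 to 0.10) and that of Flt1 was 0.24 (0.14 to 0.34). Sub-cluster 9, with 14 and 18 cells, was led by Ccl4, C1qa and Ctss, genes known from microglia, and held 3 and 0 Angpt2 UMIs. Sub-clusters 7, 8, 11 and 12 were led by erythroid, OPC, astrocyte and mural markers, and without them the log2 ratio of Angpt2 was 1.33 (0.81 to 1.88).

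**Figure D3:**
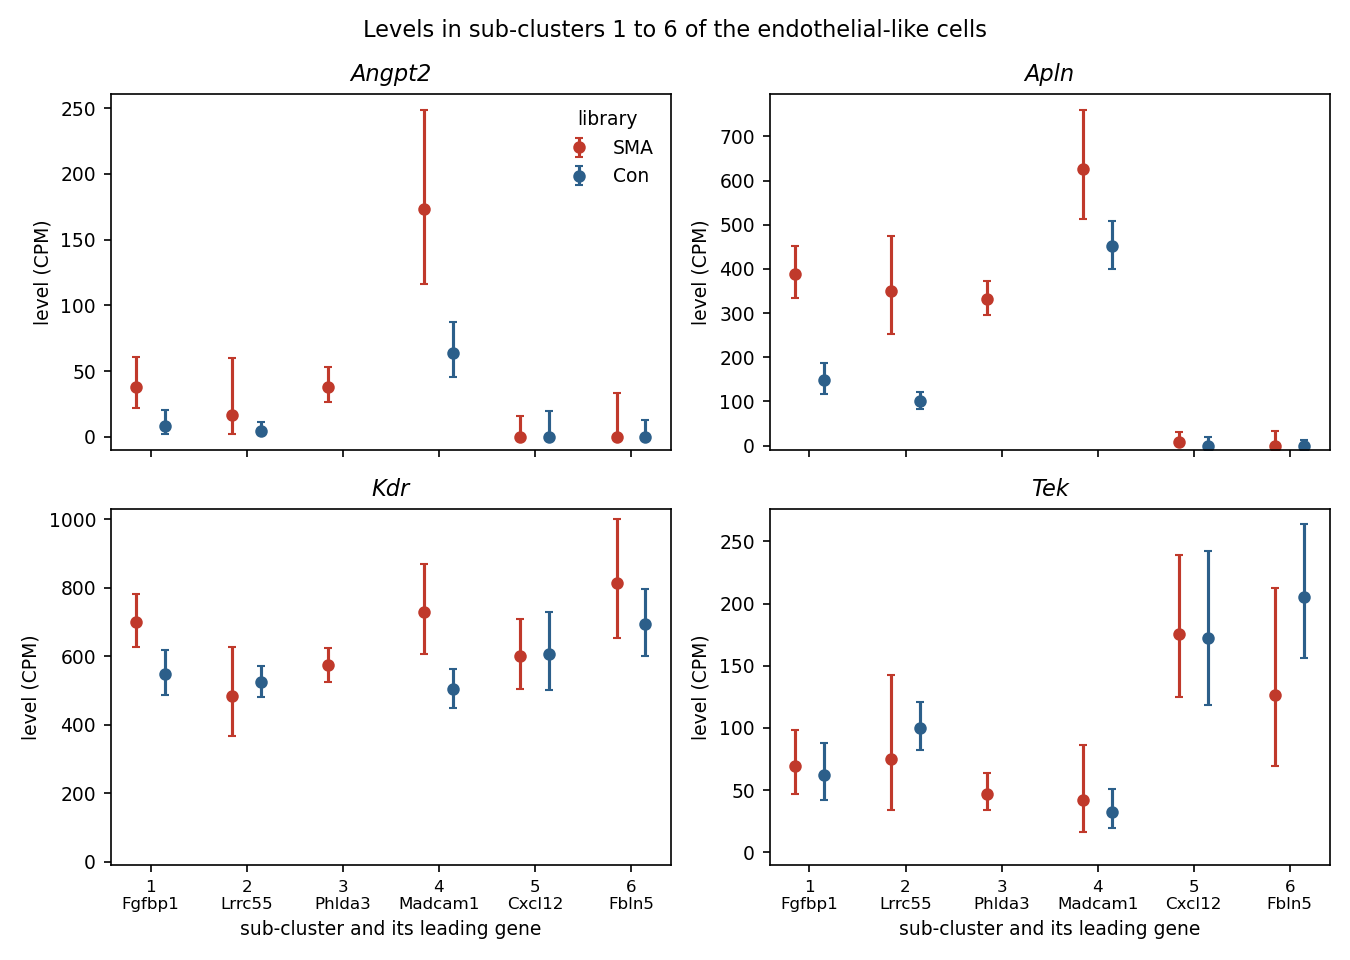
Level in CPM (vertical axis) of Angpt2, Apln, Kdr and Tek in sub-clusters 1 to 6 of the endothelial-like cells (horizontal axis, with the leading gene), for the libraries labelled SMA (red) and Con (blue). Points are levels, bars exact 95% counting intervals, and groups under 10 cells are not drawn. Angpt2 and Apln are highest in sub-cluster 4 and near 0 in sub-clusters 5 and 6, where Tek is highest.

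Angpt2 was also higher in the library labelled SMA in mural-like and fibroblast-like cells. Mural-like cells, 92 and 261 in number, held 25 and 32 UMIs, or 44.7 CPM (28.9 to 66.0) and 17.9 CPM (12.3 to 25.3), log2 SMA/Con 1.32 (0.50 to 2.12). Fibroblast-like cells, 63 and 599 in number with a median of 8890 and 3489 UMIs, held 17 and 16 UMIs, log2 SMA/Con 2.33 (1.26 to 3.41). Nearly all of the fibroblast-like cluster led by Timp1 and Mfap5 came from the library labelled Con, with 2 and 431 cells, so the ratio was also taken in the other cluster, led by Mfap4 and Slc6a13 with 61 and 168 cells. There Angpt2 stood at 29.6 and 10.5 CPM, log2 SMA/Con 1.5 (0.41 to 2.60). Schwann-like cells had 11 and 42 UMIs, log2 SMA/Con -0.81 (-1.91 to 0.18), whose interval held 0. In mural-like and fibroblast-like cells, 52.0% and 58.8% of the Angpt2 UMIs labelled SMA came from 5 cells, and without the 5 highest cells of each library the levels were 21.5 and 12.3 CPM in mural-like and 11.9 and 3.59 CPM in fibroblast-like cells.

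**Figure D4:**
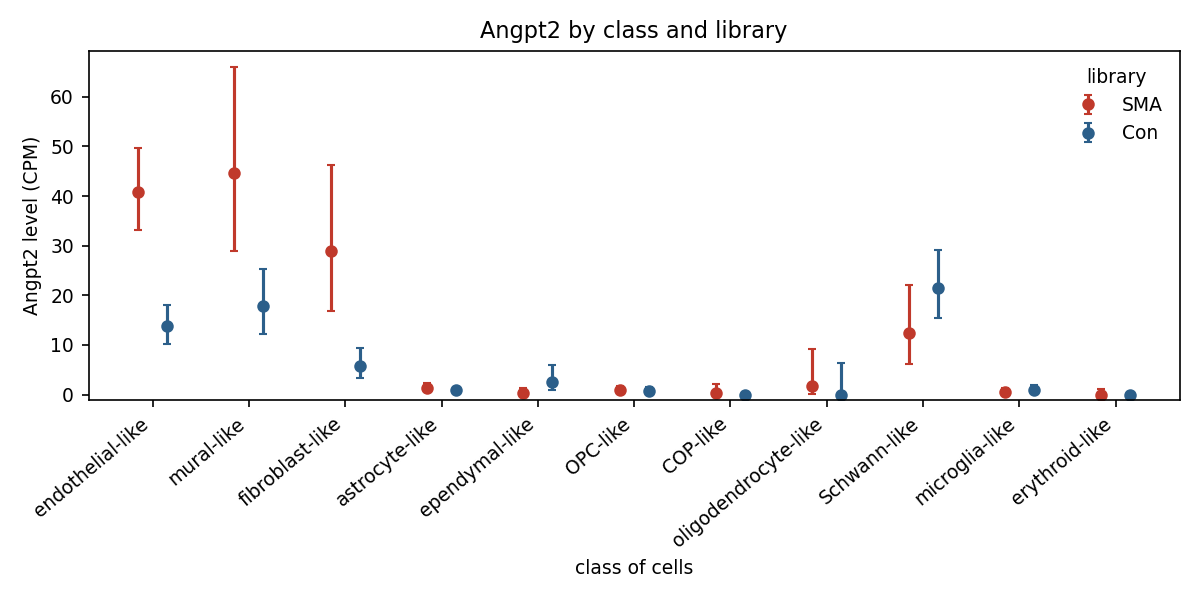
Angpt2 level in CPM (vertical axis) in the 11 classes of cells (horizontal axis) for the libraries labelled SMA (red) and Con (blue), with exact 95% counting intervals as bars. The SMA points lie above the Con points in endothelial-like, mural-like and fibroblast-like cells, and below in Schwann-like cells, where the bars overlap.

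The Angpt2 values depended on which barcodes were read. When all barcodes were clustered, the SMA cells otherwise left out because their barcode was also in the library labelled Con included 515 endothelial-like cells, in which Xist stood at 345 CPM, against 0.815 CPM in the 328 SMA cells with a barcode of their own and 430 CPM in the 370 Con cells with a shared barcode. Angpt2 stood at 18.1 CPM (11.7 to 26.7) in the left-out cells, at 40.8 CPM (33.2 to 49.6) in the SMA cells with a barcode of their own and at 14.6 CPM (10.8 to 19.2) in the Con cells with a shared barcode. The left-out cells lay nearer to the library labelled Con in both values. The 84 Con cells with a barcode of their own held 0 Angpt2 UMIs, which allows up to 15.8 CPM. In mural-like cells Angpt2 stood at 15.8 CPM (5.14 to 37.0) in the left-out cells, 44.3 CPM in the SMA cells with a barcode of their own and 18.4 CPM in the Con cells with a shared barcode. In fibroblast-like cells these values were 7.65 CPM (0.93 to 27.6), 28.9 CPM and 10.5 CPM. What part the shared barcodes had in the difference was not tested. With all SMA barcodes kept, the log2 ratio of Angpt2 was 1.25 (0.77 to 1.76).

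In astrocyte-like cells, 1324 and 1603 in number, Vegfa, Vegfb and Angptl4 differed by less than 1.5-fold. Vegfa had 388 and 461 UMIs, log2 SMA/Con 0.08 (-0.12 to 0.28), an interval that lies within 1.5-fold. Angptl4 had 872 and 1232 UMIs, log2 SMA/Con -0.17 (-0.29 to -0.04), and Vegfb 610 and 928 UMIs, log2 SMA/Con -0.27 (-0.42 to -0.13). Both were lower in the library labelled SMA, beside a median of -0.06 over all genes of the class.

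Angpt1 and Nrp1 differed more. Angpt1, with 147 and 127 UMIs, stood at 17.3 CPM (14.6 to 20.4) and 11.9 CPM (9.93 to 14.2), log2 SMA/Con 0.54 (0.19 to 0.90). Nrp1, with 161 and 316 UMIs, stood at 19.0 CPM (16.2 to 22.2) and 29.6 CPM (26.5 to 33.1), log2 SMA/Con -0.64 (-0.93 to -0.36). Of the 7 genes with enough UMIs, Nrp1 alone was past 1.5-fold lower, against 5.66% of 13147 genes, and Angpt2, with 11 and 9 UMIs, log2 SMA/Con 0.62 (-0.79 to 2.07), alone was past 1.5-fold higher, against 4.29% of genes. The Nrp1 ratio no longer passed 1.5-fold with all SMA barcodes kept (-0.54) or with a mitochondrial limit of 20% (-0.58), and the Angpt2 ratio rests on 20 UMIs with an interval that holds 0.

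The levels differed between the astrocyte-like clusters. Vegfa was highest in the cluster led by Slc7a10 and Cldn10, genes of mature astrocytes, with 59.1 CPM (52.6 to 66.2) and 62.3 CPM (56.0 to 69.1), and lower in the cluster led by Gfap and Hopx, with 20.1 CPM (13.8 to 28.2) and 17.6 CPM (13.2 to 23.1). Angptl4 showed the same order, with 127 and 153 CPM in the first and 69.4 and 68.2 CPM in the second. Vegfb stood at 70.5 and 88.0 CPM in the first and 60.9 and 80.6 CPM in the second. In the Slc7a10 cluster Nrp1 stood at 20.6 CPM (16.8 to 24.9) and 34.1 CPM (29.5 to 39.2) and Angpt1 at 20.0 CPM (16.3 to 24.2) and 12.1 CPM (9.39 to 15.3), whose intervals did not overlap between the libraries.

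The fibroblast-like class differed in its make-up between the libraries, as given above, and 2 of its 7 genes were past 1.5-fold higher and 3 lower, against 19% and 24.4% of 9550 genes. Angpt1 was 1 of the 2 higher, with 18 and 51 UMIs, log2 SMA/Con 0.74 (-0.12 to 1.54), and was -0.034 (-0.91 to 0.78) in the cluster led by Mfap4 that both libraries shared. Vegfa had 6 and 131 UMIs in the class, log2 SMA/Con -2.21 (-3.68 to -1.05), and Angptl4 had 47 and 463 UMIs, log2 SMA/Con -1.06 (-1.52 to -0.62). In the Timp1 and Mfap5 cluster of the library labelled Con, Vegfa stood at 73.1 CPM and Angptl4 at 244 CPM, while in the shared Mfap4 cluster Vegfa stood at 10.4 CPM (3.83 to 22.7) and 22.3 CPM (15.3 to 31.5) and Angptl4 at 81.8 CPM (60.1 to 109) and 92.8 CPM (77.7 to 110). The intervals overlapped in that shared cluster. Over all 11 classes, 58 pairs of 1 of the 10 genes and a class had enough UMIs, of which 7 were past 1.5-fold higher, against 8.87% of all such pairs, and 11 lower, against 9.28%. In mural-like cells 2 of 8 genes were higher, against 10.4% of genes, and 1 was lower, against 15%.

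Vegfb and Nrp1 were also compared in the larger glial classes. Vegfb had 598 and 654 UMIs in OPC-like cells, log2 SMA/Con -0.33 (-0.49 to -0.17), and 279 and 316 in microglia-like cells, log2 SMA/Con -0.40 (-0.64 to -0.16). Nrp1, a known surface protein of microglia, had 391 and 427 UMIs in microglia-like cells, log2 SMA/Con -0.35 (-0.55 to -0.14). These 3 ratios lay below 0 by less than 1.5-fold.

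The rest of the pathway was read through 47 related genes in 5 lists. In endothelial-like cells 37 had at least 20 UMIs, of which 3 were past 1.5-fold higher and 7 lower, beside the 8.47% and 8.99% of all genes given above. These counts were 7 and 4 in cells of at least 5000 UMIs and 7 and 6 without sub-cluster 3. The shares over all genes under these 2 settings are not given, so these counts cannot be set against that background. Among genes with at least 100 UMIs, Apln had 705 and 518 UMIs, or 285 and 142 CPM, log2 SMA/Con 1.00 (0.84 to 1.17), while its receptor Aplnr had 234 and 583 UMIs, log2 SMA/Con -0.76 (-0.98 to -0.54). Sdc4, a cell-surface proteoglycan listed as a partner of Angptl4, had 106 and 94 UMIs, log2 SMA/Con 0.73 (0.32 to 1.15), and P4ha1, a collagen hydroxylase subunit induced by hypoxia, had 43 and 95 UMIs, log2 SMA/Con -0.59 (-1.14 to -0.05).

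The lists were read separately. Of the 10 tip cell and VEGF-responsive genes read, 1 (Apln) was past 1.5-fold higher, against 8.47% of all genes, and 3 (Aplnr, Plvap and Kcne3) lower, against 8.99%, with a median log2 ratio of -0.01. Plvap, with 22 and 58 UMIs, log2 SMA/Con -0.84 (-1.62 to -0.11), turned to 1.22 (0.14 to 2.35) in cells of at least 5000 UMIs. The largest of these differences was that of Kcne3, a potassium channel subunit, with 2 and 45 UMIs, log2 SMA/Con -3.93 (-7.02 to -2.0). Of the 10 hypoxia-responsive genes, 0 were higher and 2 lower, with a median of -0.05. The glucose transporter Slc2a1 stood at 1119 and 906 CPM, log2 SMA/Con 0.30 (0.23 to 0.38), and Ldha at 608 CPM in both libraries. The 5 genes of the hypoxia-inducible factor (HIF) pathway had 1 higher and 0 lower and a median of 0.27. The higher gene was Arnt, the partner subunit of the HIF alpha subunits, with 51 and 47 UMIs, log2 SMA/Con 0.68 (0.07 to 1.28), beside Epas1, the HIF-2 alpha subunit of endothelium, at 354 and 257 CPM, log2 SMA/Con 0.46 (0.33 to 0.60). Of the 6 other VEGF and Tie genes read, 0 were higher and 2 lower, with a median of -0.32. The 2 lower were Pgf, with 10 and 28 UMIs, log2 SMA/Con -0.93 (-2.13 to 0.16), and Angptl6, with 7 and 16 UMIs, log2 SMA/Con -0.64 (-2.16 to 0.73). Both intervals hold 0, as do those of Vegfc at -0.37 (-0.80 to 0.05) and Nrp2 at -0.27 (-0.67 to 0.13). Ptprb, the phosphatase that restrains Tek, had 598 and 680 UMIs, log2 SMA/Con 0.37 (0.21 to 0.53). The Sdc4 ratio was 0.29 and that of Apln 0.69 with all SMA barcodes kept. The 6 Angptl4 partners had 1 gene higher and 0 lower, with a median of 0.20.

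**Figure D5:**
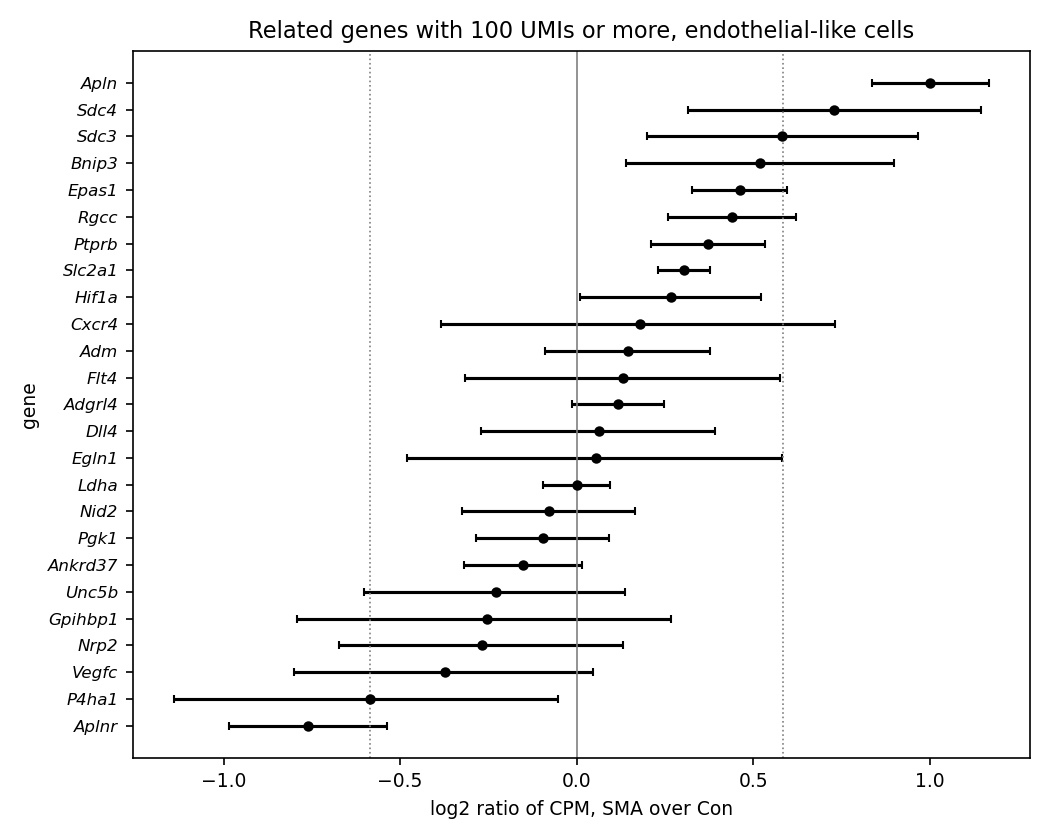
Log2 ratio of the CPM of the library labelled SMA over that labelled Con (horizontal axis) for the 25 related genes with at least 100 UMIs in endothelial-like cells (vertical axis). Points are ratios, bars exact 95% counting intervals, and dotted lines 1.5-fold either way. Apln stands to the right at 1.00 and Aplnr to the left at -0.76.

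In astrocyte-like cells 34 of the 47 related genes were read, 1 past 1.5-fold higher, against 4.29% of all genes, and 3 lower, against 5.66%, counts near that background. Sdc4 had 3478 and 2728 UMIs, or 410 and 256 CPM, log2 SMA/Con 0.68 (0.61 to 0.75). Nrp2, the co-receptor related to Nrp1, had 58 and 124 UMIs, log2 SMA/Con -0.77 (-1.24 to -0.30), and Aplnr had 99 and 379 UMIs, log2 SMA/Con -1.61 (-1.94 to -1.28). The 11 hypoxia-responsive genes read had a median of -0.15 with none past 1.5-fold, and Pgf, the placental growth factor that binds Flt1, stood at 59.2 and 54.5 CPM, log2 SMA/Con 0.12 (-0.06 to 0.29).

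Over the 22 points of 11 classes in 2 libraries, the 4 endothelial receptors ran closely together. The Pearson correlation of log2(CPM + 10) lay between 0.95 (Kdr and Tek) and 0.99 (Flt1 and Tie1), and Angpt2 was most like Nrp1 among the 10 genes, at 0.67. Of 13088 genes searched, the most alike were Pglyrp1, Icam2 and Ptprb for Kdr (0.98), Gpr4, Depp1 and C130074G19Rik for Flt1 (0.99), Dok4, Ackr2 and She for Tek (0.98) and Gpr4, Depp1 and Dll4 for Tie1 (0.98 to 0.99). For the ligands they were Cntfr, Nr1d1 and Me1 for Vegfa (0.82 to 0.85), Mir99ahg, Clcc1 and Sfxn1 for Vegfb (0.91 to 0.93), Zic1, Slc30a10 and Adamts12 for Angpt1 (0.92 to 0.95), Col4a2, Uaca and Col18a1 for Angpt2 (0.88 to 0.90) and Castor1, Hspb1 and Id3 for Angptl4 (0.90 to 0.93). Fcgrt, Ifi35 and Anxa7 were most like Nrp1 (0.92 to 0.93). The points share libraries and class definitions, and the likeness is a description only.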

How the data were processed

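The files hold counts: the authors mapped reads to mm10 with Cell Ranger (version 4.0.0 per the file headers, where the methods of the study name an earlier version). They deposited UMI counts per gene and barcode for each library, and used Seurat 3.2.2 downstream. Barcodes with over 200 and under 4000 genes and under 10% mitochondrial UMIs were kept. SMA barcodes also listed for the library labelled Con were left out. The upper gene limit was the only treatment of doublets. Cells were clustered with Scanpy 1.11.5 and leidenalg 0.10.2 in Python 3.11.15 (2000 variable genes, 30 components, 20 neighbours, resolution 1), 1 cluster was removed for its ribosomal share (over 30%) and 3 clusters stayed unnamed. Clusters were named by the marker lists of each class (10 for each, of which 9 were in the matrices for COP-like cells), and classes with 50 cells in each library were compared. UMIs were summed per class and library. Levels have exact Poisson intervals and ratios exact conditional binomial intervals (SciPy 1.17.1), which cover counting error only. A gene was read in a class from 20 UMIs over both libraries and called past 1.5-fold. With 1 library per group there is no test. The fold and interval code was tested on simulated data. All 10 genes are named, with related genes of at least 100 UMIs past 1.5-fold, up to 4 in each direction, and the 3 genes most like each by correlation. Other related genes (Slc2a1, Ldha, Epas1, Arnt, Ptprb, Plvap, Kcne3, Pgf, Angptl6, Vegfc, Vegfd, and Nrp2 in endothelial-like cells) were chosen after their values were seen. The genes and lists were chosen with earlier results of these data known. Gene positions are from GENCODE M21. Alternatives covered barcodes, mitochondrial and gene limits, resolution, depth, cell weighting, centring and the UMI minimum.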

Additional observations from a re-analysis of the deposited data

How the results depend on the processing

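No paired analysis was possible because each group is 1 library, and for the same reason no library could be left out. The 5 receptors that were highest in endothelial-like cells stayed so under every alternative run. Angpt2 in endothelial-like cells ranged in log2 SMA/Con from 1.25 (all SMA barcodes kept) to 1.71 (each cell weighted equally). The count of the 10 genes past 1.5-fold higher in astrocyte-like cells, 1 as reported, was 0 with all SMA barcodes kept, with shared barcodes kept in the library with more UMIs, with a mitochondrial limit of 20%, at resolution 2, in cells of at least 5000 UMIs, with each cell weighted equally and from 100 UMIs, and 2 after centring on the median gene and from 1 UMI in each library. The count lower there, also 1, was 0 with all SMA barcodes or the 20% limit and 2 from 1 UMI. In endothelial-like cells the count lower, 0 as reported, was 1 without the upper gene limit and from 1 UMI. The cause was not tested. Shares over all genes are given for the main setting only, so the counts under alternatives in this section have no background of their own.

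Of the related genes in endothelial-like cells, 3 were higher as reported, and 5 without the gene limit and 7 in cells of at least 5000 UMIs. The 7 lower were 4 under both of these settings and 2 from 100 UMIs. In astrocyte-like cells 3 related genes were higher from 1 UMI (1 as reported), and 5 were lower with each cell weighted equally (3 as reported). In the classes other than these, 5 pairs of gene and class were higher as reported, 8 without the gene limit, 14 from 1 UMI and 0 from 100 UMIs. The 10 lower pairs were 6 in cells of at least 5000 UMIs, 25 from 1 UMI and 2 from 100 UMIs. The changes with the UMI minimum come from the number of genes read. Plvap in endothelial-like cells turned from -0.84 to 1.22 in cells of at least 5000 UMIs.

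Some alternatives were chosen after seeing the data. With endothelial sub-clusters led by other classes' markers left out, 2 of the 10 genes were higher, since Vegfb reached 0.94. With the sub-cluster held by the library labelled SMA left out, 7 related genes were higher, and the count lower there is given with the related genes above. In the fibroblast-like cluster shared by both libraries, Angpt1 turned from 0.74 to -0.034 and Angptl4 moved from -1.06 to -0.18. With 1 library of pooled littermates per group, sex, dissociation and genotype cannot be told apart.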

Other observations

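Pgf and Vegfd are ligands of the VEGF family outside the 10 genes. Pgf, which binds Flt1, stood in astrocyte-like cells at 59.2 and 54.5 CPM (502 and 581 UMIs), in mural-like cells at 53.6 and 77.3 CPM (30 and 138 UMIs) and in fibroblast-like cells at 10.2 and 47.0 CPM (6 and 131 UMIs). Vegfd, a ligand known from lymphatic vessels, had 0 and 138 UMIs in fibroblast-like cells, where 2 and 431 cells came from the Timp1 and Mfap5 cluster. In which fibroblast-like cluster the Vegfd UMIs lay was not read.

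Several other differences past 1.5-fold rested on few UMIs. In OPC-like cells 12 and 29 UMIs of Angptl4 were read, log2 SMA/Con -1.47 (-2.58 to -0.46), which was -0.43 at resolution 2. It had 5 and 16 UMIs in oligodendrocyte-like cells, log2 SMA/Con -1.78 (-3.58 to -0.26). Angpt1 had 25 and 6 UMIs in ependymal-like cells, log2 SMA/Con 0.99 (-0.33 to 2.57), an interval that holds 0.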
